A study of Mus musculus with 14 samples.

Results

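The genes described here are 10 nuclear silencers of transposons, measured by RNA sequencing in sorted male germ cells of mice. They were listed by name as factors of piRNA-directed DNA methylation and of histone H3 lysine 9 (H3K9) methylation, and all 10 were found among the 32667 gene entries of the spermatogonia table and the 36888 of the spermatocyte table. The 14 libraries formed 4 groups. Mice homozygous for a Dnmt3C knockout (Dnmt3CKO/KO, here KO) gave 3 libraries of spermatogonia (Spg, premeiotic cells) and 4 of spermatocytes (Spc, meiotic cells), and wild-type mice (WT) gave the same numbers. The mice were kept on a C57Bl6/J background and the knockout was present in every cell of the body. Spg were sorted at postnatal day 14 as viable cells that lacked beta-2-microglobulin and carried Ep-CAM, and Spc were sorted by DNA content from mice older than 20 days. The study speaks of biological replicates and of cells collected from littermates, but the labels do not tie a library to an animal or litter, so the p-values measure the spread between these libraries.

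Transposons in the male germline are held silent by several layers of chromatin and DNA methylation. In fetal prospermatogonia, small RNAs called piRNAs guide the Argonaute protein MIWI2 (gene Piwil4) to young transposons in the nucleus, and TEX15 and SPOCD1 join it there and are needed for the methylation that follows, as is the germline ATPase MORC1. DNMT3C is the rodent DNA methyltransferase that methylates promoters of young retrotransposons. In parallel, TRIM28 is brought to transposons by KRAB zinc finger proteins and recruits SETDB1, which trimethylates H3K9 with its partner ATF7IP. The HUSH complex, which includes MPHOSPH8 and periphilin (Pphln1), reads and spreads that mark. EHMT2 (G9a) dimethylates H3K9, and HELLS (LSH) is a chromatin remodeller that opens repeats to DNA methylation.

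Depth was 40555726 to 53323651 counts per library, and the lowest and highest counts of a member were 106 (Spocd1) and 44388 (Tex15), so counting error was small beside the spread between libraries. Levels are given as CPM, counts relative to the library total after TMM scaling, and a gene was called when edgeR's quasi-likelihood test gave a Benjamini-Hochberg adjusted p under 0.01 over all genes and transposon subfamilies tested. TMM factors were 0.605 to 0.851 in WT Spc and 1.05 to 1.24 in the other libraries, so that directions across WT Spc depend on the scaling and are given below with library totals where they change. The Dnmt3c transcript was not lower in KO and does not check the labels, with 58 to 116 counts in KO Spg against 53 to 89 in WT Spg, and 52 to 57 in KO Spc against 11 to 28 in WT Spc. Markers of germ cell stages differed between the genotypes. The summed level of 6 genes of pachytene and later cells was 6288 to 12468 CPM in WT Spc and 19.95 to 52.5 CPM in KO Spc, and that of 7 spermatogonial genes was 37.1 to 272 CPM in WT Spc and 432 to 1095 CPM in KO Spc. The study describes an arrest of KO cells in meiosis, so fewer cells of a type and less RNA per cell cannot be told apart in any difference between KO and WT Spc. In WT Spc, replicate 3 stood apart with the lowest pachytene sum and the highest spermatogonial, early meiotic (2245 CPM) and spermatid (1426 CPM) sums of its group. Replicates 1 and 4 of Spc were much alike in both genotypes, though they differed by more than counting error. Their chi-square per degree of freedom was 14.5 in KO and 19.7 in WT, against 172 to 382 for the other pairs of Spc.

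**Figure D1:**
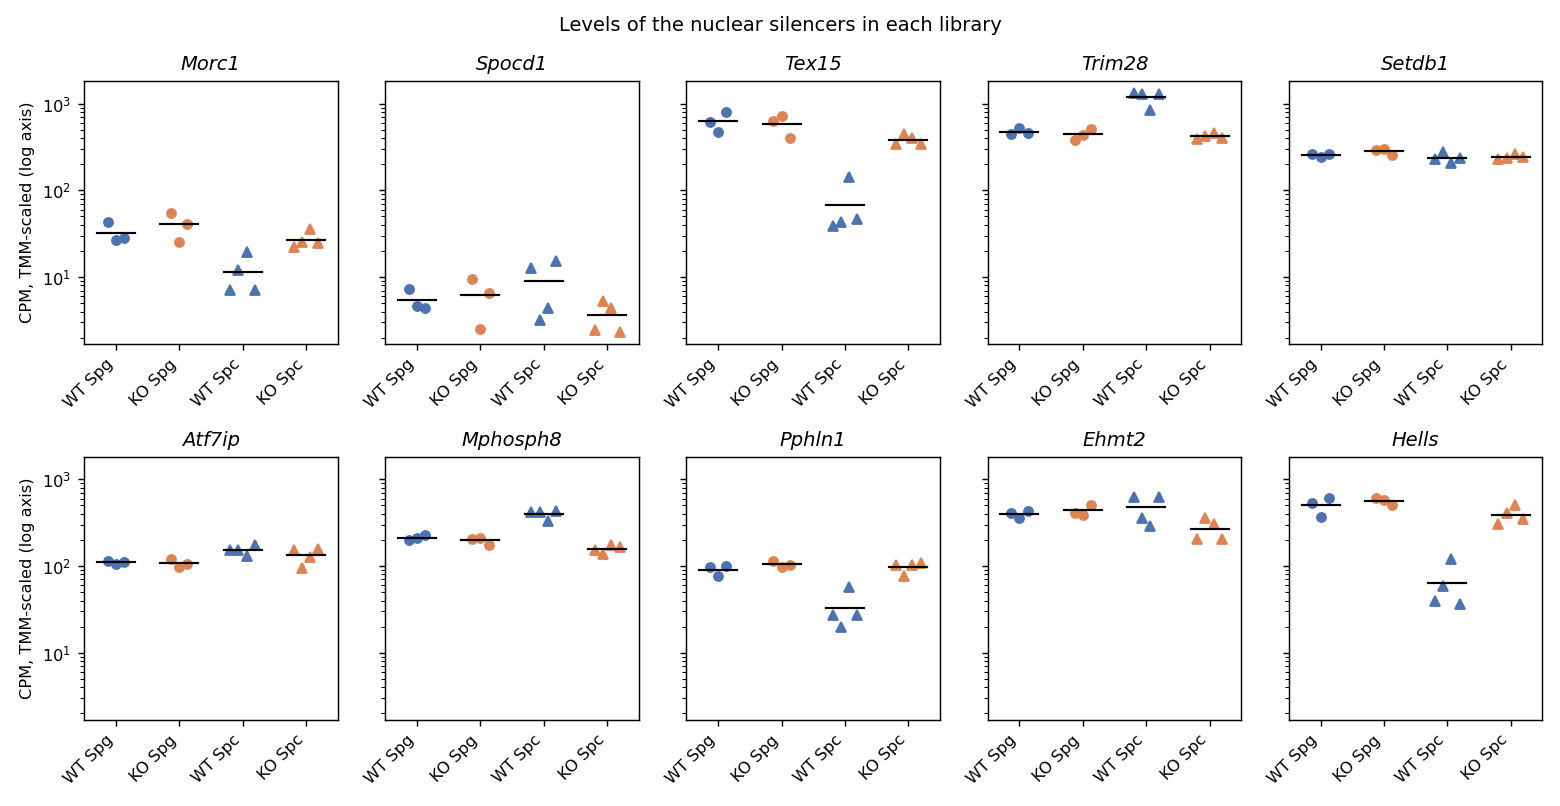
Levels of the 10 silencers in each library, as TMM-scaled CPM on a log axis. Circles are spermatogonia, triangles spermatocytes, blue WT, orange KO, and black bars group means. Tex15 and Hells lie at 39.3 to 141 and 36.7 to 121 CPM in WT Spc and at 308 CPM or more in the libraries of the other groups, while Trim28 and Mphosph8 are highest in WT Spc.

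Per kilobase of exon, which allows genes to be compared, Trim28 was the most abundant silencer in each group. Its mean ± SD was 115 ± 9.87 CPM per kb in WT Spg (n = 3), 106 ± 15.2 in KO Spg (n = 3), 286 ± 54.2 in WT Spc (n = 4) and 101 ± 5.94 in KO Spc (n = 4). In WT Spg it was followed by Ehmt2 (72.8 ± 6.90 CPM per kb), Hells (70.0 ± 17.1), Tex15 (66.0 ± 17.3) and Mphosph8 (59.2 ± 3.48), neighbours that did not differ by more than their SD. Setdb1 (37.4 ± 1.81), Pphln1 (20.03 ± 2.58), Atf7ip (5.35 ± 0.228), Morc1 (5.02 ± 1.36) and Spocd1 (1.69 ± 0.507) came next in WT Spg, with Atf7ip and Morc1 within their spread of each other. The order in KO Spg was the same but for Morc1 (6.23 ± 2.23) and Atf7ip (5.19 ± 0.537), which changed places within their spread. In WT Spc, Mphosph8 (112 ± 13.4) was second and Ehmt2 (87.0 ± 32.9) next, then came Setdb1 (34.7 ± 4.38), and Hells, Atf7ip, Pphln1 and Tex15 lay together at 7.03 to 8.87 CPM per kb. In KO Spc, Hells (54.3 ± 11.5) was second, and Ehmt2 (49.0 ± 14.3), Mphosph8 (43.9 ± 4.76), Tex15 (39.9 ± 5.17) and Setdb1 (35.2 ± 2.06) followed without a gap above the spread.

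The first question is whether loss of DNMT3C was met by a change of these silencers in premeiotic cells. None of the 10 was called in Spg, where 0.0629% of 20659 genes were called in either direction. None had an unadjusted p under 0.05, the smallest being 0.236 (Pphln1), and DESeq2 called none either. Their log2 fold changes (KO over WT) ran from -0.16 (Tex15) to 0.28 (Morc1) with a median of 0.10, against 0.03 over all genes tested. KO and WT libraries of Spg overlapped for all 10, while 12.2% of genes had groups that did not overlap. With the replicate number as a block, calls over all genes went from 13 to 144, and members called stayed at 0. Spg libraries of the same number deviated together at r = 0.797, 0.187 and 0.329, though replicate 2 was not most like its own number. The standard errors of these fold changes were 0.12 to 0.15 on the log2 scale for Setdb1, Atf7ip, Mphosph8, Pphln1, Ehmt2 and Trim28, 0.18 to 0.30 for Hells, Tex15 and Morc1, and 0.47 for Spocd1, so that a change of Spocd1 could be seen least well. The Spg libraries also held markers of other cells. Sertoli genes summed to 292, 142 and 80.6 CPM in WT Spg and 353, 141 and 111 CPM in KO Spg. Pachytene genes summed to 71.1 to 933 CPM in WT Spg and 13.8 to 16.8 CPM in KO Spg. The part of these cells was not tested.

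In Spc, 5 of the 10 were called between KO and WT. Hells, Tex15 and Pphln1 were higher in KO, and Trim28 and Mphosph8 were lower. These are 3 of 10 higher, where 28.0% of 21919 genes were called higher, and 2 of 10 lower, where 30.7% were called lower, so the share of members called was near that of all genes. KO and WT libraries did not overlap for 6 of the 10 (4 higher and 2 lower in KO), against 67.9% of all genes. With TMM the median log2 fold change of the 10 was -0.07, against 0.11 over all genes. With library totals the all-gene median was 0.79, and no median of the 10 was taken at that scaling. Over all genes, 6145 were called higher and 6740 lower with TMM, and 8076 higher and 4882 lower with library totals. Without WT Spc replicate 3, 6 members were called, Morc1 being added, and with replicates 1 and 4 of each genotype summed to 1 library, 4 were called, Pphln1 being lost (adjusted p = 0.0149). Over all genes the calls were 7185 higher and 6932 lower of 22851 without that library, and 3533 higher and 5225 lower of 22276 with the summed replicates.

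**Figure D2:**
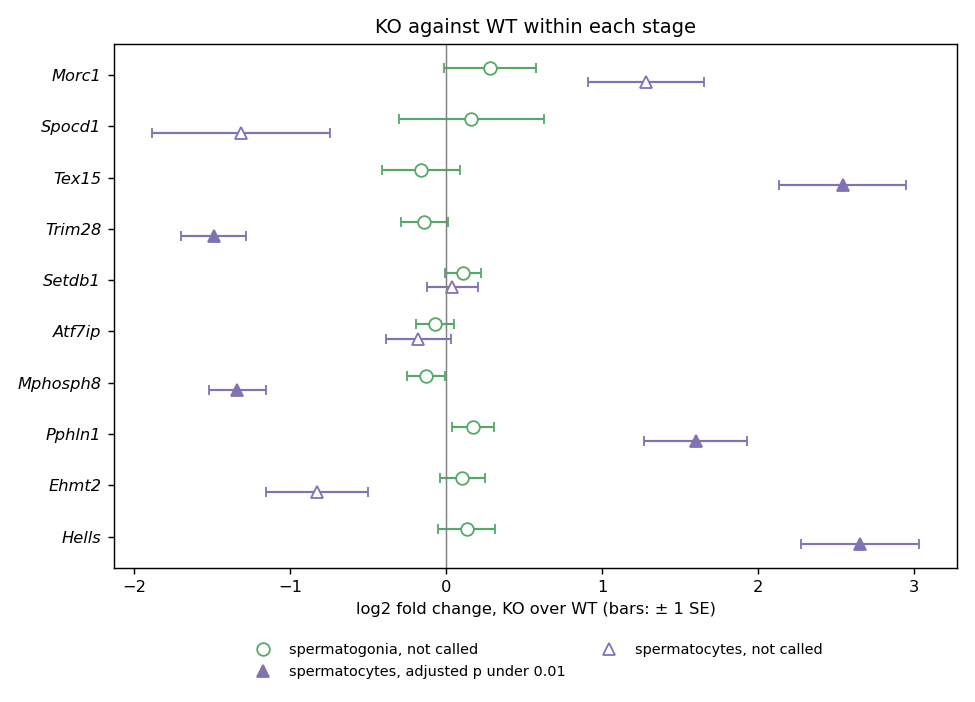
Log2 fold change of KO over WT for each silencer in spermatogonia (green circles) and spermatocytes (purple triangles), with bars of 1 SE. Filled symbols have an adjusted p under 0.01 in edgeR's test. In spermatogonia all 10 lie between -0.16 and 0.28 and none is filled, whereas in spermatocytes 5 are filled and the 10 spread from -1.49 (Trim28) to 2.65 (Hells).

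Tex15, Morc1 and Spocd1 are the germline factors of piRNA-directed methylation among the members. Of these, Tex15 (chr8:33516738-33585582, plus strand, positions of all genes on GRCm38) had the largest fold change between KO and WT Spc. Tex15 stood at 622, 475 and 808 CPM in WT Spg and at 625, 710.3 and 397 CPM in KO Spg, and in Spc at 39.3, 43.5, 141 and 46.6 CPM in WT and 342, 447, 400.0 and 347 CPM in KO. Every WT Spc library was below every other library, and replicate 3 was the highest of the WT Spc. The mean was 5.68 times as high in KO Spc as in WT Spc (edgeR log2 fold change 2.54 ± 0.41, adjusted p = 0.000393), and the call held without each library in turn. Within WT, Tex15 fell by 3.23 ± 0.40 on the log2 scale from Spg to Spc (edgeR adjusted p = 2.4e-05). Within KO the change was -0.59 ± 0.39 (edgeR adjusted p = 0.365), which did not pass.

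Morc1 (chr16:48431237-48630900, plus strand) stood at 42.7, 26.5 and 28.4 CPM in WT Spg and at 54.6, 25.6 and 41.0 CPM in KO Spg. In Spc it stood at 7.04, 11.99, 19.6 and 7.09 CPM in WT and at 22.3, 25.3, 36.0 and 24.7 CPM in KO, so the groups of Spc did not overlap. The KO over WT log2 fold change in Spc was 1.28 ± 0.37, with an edgeR adjusted p of 0.0103 that just missed the threshold. It passed with DESeq2 (1.24, adjusted p = 0.00103), with the replicate block (1.37, edgeR adjusted p = 0.00512), with library totals (1.88, 0.00552) and without WT Spc replicate 3 (1.66, 0.00146). In WT, Morc1 fell by 1.51 ± 0.37 on the log2 scale from Spg to Spc (edgeR adjusted p = 0.00284). That call was lost with replicates 1 and 4 summed (-1.30, edgeR adjusted p = 0.0116).

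Spocd1 (chr4:129929249-129957115, plus strand) was the least abundant of the 10 per kilobase in 3 of the 4 groups, Morc1 being lower in WT Spc. It stood at 7.31, 4.63 and 4.35 CPM in WT Spg, 9.62, 2.55 and 6.51 CPM in KO Spg, 12.9, 3.19, 4.45 and 15.2 CPM in WT Spc and 2.42, 5.25, 4.44 and 2.32 CPM in KO Spc. The Spc libraries fell into 2 kinds along replicate number. Replicates 1 and 4 held the high values of WT Spc and the low values of KO Spc, while replicates 2 and 3 of both genotypes lay between 3.19 and 5.25 CPM. The KO over WT log2 fold change in Spc was -1.31 ± 0.57 (edgeR adjusted p = 0.0603), and no contrast of Spocd1 was called.

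TRIM28, the corepressor that links KRAB zinc finger proteins to H3K9 methylation, had the opposite pattern. Trim28 (chr7:12999114-13031035, plus strand) stood at 452, 524 and 455 CPM in WT Spg, 380.0, 437 and 506 CPM in KO Spg, 1326, 1299.7, 854 and 1283 CPM in WT Spc and 396, 423, 452 and 406 CPM in KO Spc. The lowest WT Spc library, replicate 3, was above every library of the other groups. In Spc the KO mean was 0.352 of the WT mean (edgeR log2 fold change -1.49 ± 0.21, adjusted p = 0.000178, and -0.75 with an adjusted p of 0.00167 on library totals). From WT Spg to WT Spc Trim28 rose by 1.32 ± 0.18 on the log2 scale (edgeR adjusted p = 3.9e-05), but on library totals the rise was 0.47 and missed the threshold (edgeR adjusted p = 0.0155). From KO Spg to KO Spc the change was -0.07 ± 0.17 (edgeR adjusted p = 0.825).

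SETDB1 and ATF7IP, the methyltransferase that TRIM28 recruits and its partner, were not called between the genotypes with TMM. Setdb1 (chr3:95323525-95357202, minus strand) stood at 264, 242 and 263 CPM in WT Spg, 290.5, 297 and 257 CPM in KO Spg, 229, 279, 207 and 238 CPM in WT Spc and 227, 236, 261 and 241 CPM in KO Spc. The KO and WT libraries overlapped in both stages. The log2 fold change in Spc was 0.04 ± 0.17 (edgeR adjusted p = 0.838) with TMM, -0.03 with DESeq2 and 0.75 with library totals, where it was called (edgeR adjusted p = 0.00332) beside an all-gene median of 0.79. Atf7ip (chr6:136506167-136610862, plus strand) stood at 115, 106 and 112 CPM in WT Spg, 119.5, 97.5 and 106 CPM in KO Spg, 152, 152, 132 and 174 CPM in WT Spc and 155, 94.7, 128 and 156 CPM in KO Spc. Its groups overlapped between genotypes in both stages, with a log2 fold change in Spc of -0.18 ± 0.21 (edgeR adjusted p = 0.463) that became 0.52 on library totals (edgeR adjusted p = 0.0218). Neither gene was called between the stages in either genotype with TMM, and with library totals Setdb1 was called lower in WT Spc than in WT Spg (-0.93, edgeR adjusted p = 0.000192).

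The 2 HUSH subunits among the members went opposite ways in Spc. Mphosph8 (chr14:56668248-56697430, plus strand), which encodes the chromodomain reader of H3K9 trimethylation, stood at 202, 209 and 226 CPM in WT Spg, 207, 211 and 175 CPM in KO Spg, 419.7, 425, 332 and 435 CPM in WT Spc and 151, 137, 176 and 165 CPM in KO Spc. All WT Spc libraries were above the range of Spg, and KO Spc libraries lay at its lower end or below it. Its log2 fold change of KO over WT in Spc was -1.34 ± 0.18 (edgeR adjusted p = 0.000167), and with library totals it was -0.62 (edgeR adjusted p = 0.00466). Its rise from WT Spg to WT Spc was 0.92 ± 0.16 (edgeR adjusted p = 0.000203), and on library totals the same contrast was 0.09 (edgeR adjusted p = 0.585) and was not called.

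Pphln1 (chr15:93398350-93491510, plus strand), which encodes periphilin, stood at 96.3, 77.6 and 99.2 CPM in WT Spg and 113, 98.1 and 102 CPM in KO Spg. In Spc it stood at 27.0, 19.6, 57.8 and 27.2 CPM in WT and at 103, 76.4, 102 and 109.8 CPM in KO, so that the WT Spc were lower than every other library. The KO over WT log2 fold change in Spc was 1.60 ± 0.33 (edgeR adjusted p = 0.00166), a call lost with replicates 1 and 4 summed (1.48, edgeR adjusted p = 0.0149). In WT, Pphln1 fell by 1.47 ± 0.29 on the log2 scale from Spg to Spc (edgeR adjusted p = 0.00063), and in KO the change was -0.10 ± 0.29 (edgeR adjusted p = 0.867).

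A ratio of counts within a library does not depend on how libraries are scaled. Pphln1 counts per Mphosph8 count were 0.477, 0.372 and 0.439 in WT Spg and 0.548, 0.464 and 0.583 in KO Spg. The ratios were 0.0643, 0.0461, 0.174 and 0.0625 in WT Spc and 0.681, 0.558, 0.579 and 0.666 in KO Spc. WT Spc thus held far fewer Pphln1 counts per Mphosph8 count than the other groups, with replicate 3 nearest to them. Tex15 per Trim28 ran from 0.0296 to 0.165 in WT Spc and from 0.854 to 1.06 in KO Spc. By contrast, Atf7ip per Setdb1 overlapped between KO and WT Spc, at 0.401 to 0.680 and 0.546 to 0.730. These ratios were taken after the fold changes were known and carry no test.

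**Figure D3:**
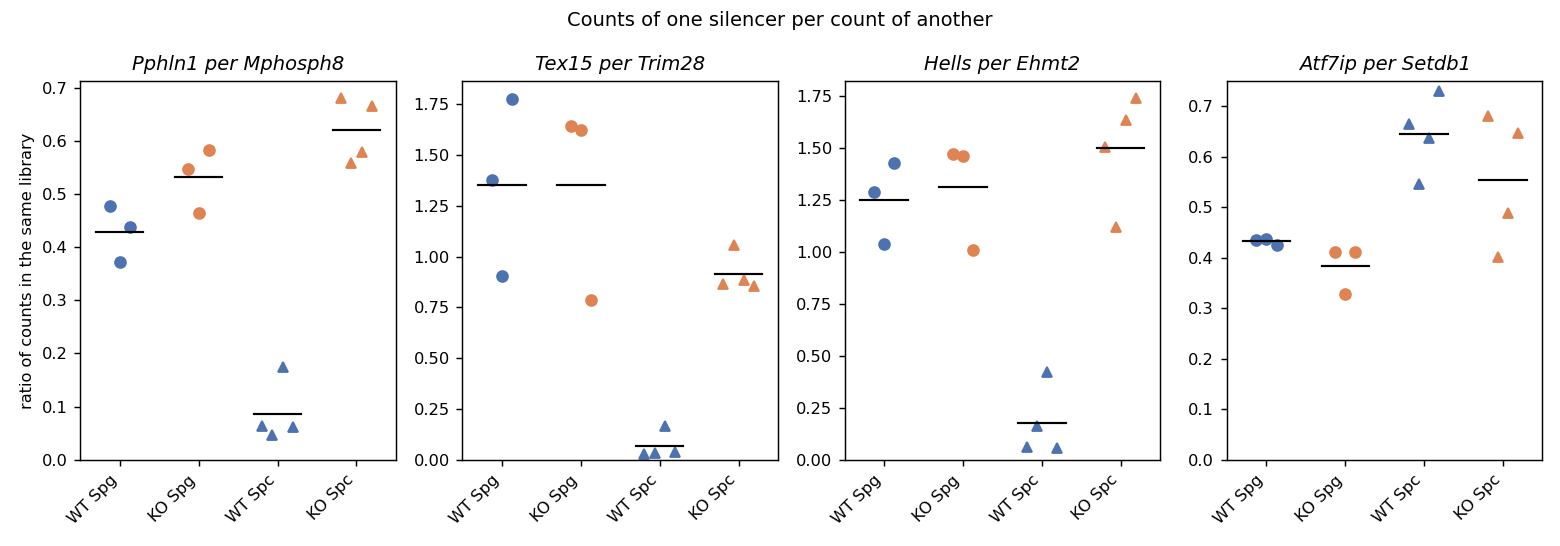
Ratio of the counts of 2 silencers in the same library, for 4 pairs, each on its own linear axis from 0. Symbols are libraries (circles spermatogonia, triangles spermatocytes, blue WT, orange KO) and bars are group means. Pphln1 per Mphosph8, Tex15 per Trim28 and Hells per Ehmt2 are lowest in the 4 WT Spc libraries, and Atf7ip per Setdb1 overlaps between KO and WT Spc.

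HELLS and EHMT2 act on DNA methylation and on H3K9 dimethylation. Hells (chr19:38930915-38971051, plus strand) stood at 529.5, 371 and 614 CPM in WT Spg, 609, 571 and 509 CPM in KO Spg, 39.3, 58.8, 121 and 36.7 CPM in WT Spc and 308, 404, 500.2 and 352 CPM in KO Spc. As with Tex15, the WT Spc libraries were below all others and replicate 3 was their highest. The mean of Hells was 6.12 times as high in KO as in WT Spc (edgeR log2 fold change 2.65 ± 0.38, adjusted p = 0.000207), and it fell by 2.98 ± 0.36 on the log2 scale from WT Spg to WT Spc (edgeR adjusted p = 1.87e-05). Ehmt2 (chr17:34898469-34914052, plus strand) stood at 412, 357 and 429.6 CPM in WT Spg, 414, 391 and 506 CPM in KO Spg, 631, 362, 286 and 633 CPM in WT Spc and 205, 362, 306 and 203 CPM in KO Spc. Like Spocd1, Ehmt2 split the Spc libraries by replicate number, with replicates 1 and 4 high in WT and low in KO and replicates 2 and 3 alike in both. Spermatogonial markers split along the same numbers. They summed to 41.9 and 37.1 CPM in WT Spc replicates 1 and 4 and to 150.5 and 272 CPM in 2 and 3. In KO Spc they summed to 440 and 432 CPM in replicates 1 and 4 and to 1090 and 1095 CPM in 2 and 3. Early meiotic, peritubular and macrophage sums of KO Spc did not split this way, and the part of these cells was not tested. The log2 fold change of Ehmt2 in Spc was -0.82 ± 0.33 (edgeR adjusted p = 0.0431) and -0.03 with library totals, and it was not called.

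The promoters of the 4 members that were called in Spc and have an entry are shown because these genes changed in 2 directions in the same comparison. Each line gives 300 bases from RefSeq on GRCm38.p6, from 250 before to 50 after a transcription start, and of the 2 windows of Pphln1, which overlap, the second is shown because it alone holds a match to a motif searched. Capitals mark an exact match, on either strand, to the NRF1 core GCGCATGC, to the E2F motif in the form GGCGGGAA or to the E-box CACGTG. Other forms of these motifs were not searched.
Trim28, chr7:13023902-13024201, plus strand: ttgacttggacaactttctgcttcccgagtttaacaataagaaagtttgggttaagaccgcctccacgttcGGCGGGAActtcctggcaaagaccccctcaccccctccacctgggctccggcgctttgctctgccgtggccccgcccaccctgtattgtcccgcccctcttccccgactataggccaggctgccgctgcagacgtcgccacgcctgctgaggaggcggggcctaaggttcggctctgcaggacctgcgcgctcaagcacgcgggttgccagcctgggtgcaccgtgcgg
Mphosph8, chr14:56667998-56668297, plus strand: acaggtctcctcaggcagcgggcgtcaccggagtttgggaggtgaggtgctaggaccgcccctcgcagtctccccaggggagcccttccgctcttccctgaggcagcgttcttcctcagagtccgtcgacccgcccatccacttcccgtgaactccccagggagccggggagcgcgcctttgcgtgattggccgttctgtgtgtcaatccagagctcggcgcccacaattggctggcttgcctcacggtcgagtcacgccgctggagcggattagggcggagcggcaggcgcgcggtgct
Pphln1, chr15:93398214-93398513, plus strand: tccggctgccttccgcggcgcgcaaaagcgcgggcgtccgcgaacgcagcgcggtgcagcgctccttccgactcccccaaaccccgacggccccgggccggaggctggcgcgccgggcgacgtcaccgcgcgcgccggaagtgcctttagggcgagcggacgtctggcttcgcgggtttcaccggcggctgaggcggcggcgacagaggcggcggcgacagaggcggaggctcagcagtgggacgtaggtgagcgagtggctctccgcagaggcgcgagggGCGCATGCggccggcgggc
Hells, chr19:38930740-38931039, plus strand: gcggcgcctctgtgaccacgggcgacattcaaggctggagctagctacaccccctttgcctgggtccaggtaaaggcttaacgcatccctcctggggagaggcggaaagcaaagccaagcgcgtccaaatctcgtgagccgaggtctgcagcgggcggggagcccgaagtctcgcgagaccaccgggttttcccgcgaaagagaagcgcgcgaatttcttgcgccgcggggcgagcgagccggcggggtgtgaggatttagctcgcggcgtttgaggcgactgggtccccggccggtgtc

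The window of Trim28 held 1 exact match to the E2F motif as written, which 2.19% of 32851 windows held. The second window of Pphln1 held 1 match to the NRF1 core, found in 2.71%. No exact match to the 3 motifs as written lay in the first window of Pphln1 or in the windows of Mphosph8 and Hells. Sites in other forms may still lie there, since the search could not find them. Both windows of Ehmt2 held the E-box, with 2 matches and 1 match, where 7.15% of windows held it, and the windows of Setdb1 and Atf7ip held none of the 3. All 7 members with a window were richer in CpG than the median window (7 CpG). They had 15 (Setdb1), 23 (Trim28), 28 (Mphosph8), 29 (Atf7ip), 34 (Hells), 28 and 40 (Ehmt2) and 53 and 52 (Pphln1) CpG, and the members that were higher in KO Spc and those that were lower were both CpG-rich. Morc1, Spocd1 and Tex15 are named only.

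Stage, age and sorting method changed together between Spg and Spc, so these cannot be told apart in the stage contrasts. Between the stages, 6 members were called in WT. Trim28 and Mphosph8 were higher in Spc (2 of 10, against 29.2% of 24340 genes), and Tex15, Hells, Morc1 and Pphln1 were lower (4 of 10, against 23.3%). With TMM the median log2 fold change of the 10 was 0.08, against 0.02 over all genes. With library totals the all-gene median was -0.76, and no median of the 10 was taken at that scaling. Over all genes, 7103 were called higher and 5674 lower in WT Spc with TMM, and 4541 higher and 8724 lower with library totals. On library totals the changes of Trim28 and Mphosph8 lost their call, and the estimates of Atf7ip (0.46 to -0.37), Ehmt2 (0.26 to -0.61) and Spocd1 (0.72 to -0.19) changed sign, none of them called. In KO, none of the 10 was called between the stages, and 2 (Ehmt2 and Mphosph8) had an unadjusted p under 0.05, with log2 fold changes of -0.70 and -0.33. DESeq2 called none in KO either, and 3.05% of 24340 genes were called there, in either direction. The members' log2 fold changes in KO ran from -0.79 (Spocd1) to 0.31 (Atf7ip), with standard errors of 0.14 to 0.56. The 7 spermatogonial marker genes summed to 1376 to 1782 CPM in KO Spg and still to 432 to 1095 CPM in KO Spc. In WT they summed to 1128 to 1610 CPM in Spg and 37.1 to 272 CPM in Spc. Pachytene genes summed to 13.8 to 16.8 CPM in KO Spg and 19.95 to 52.5 CPM in KO Spc. The part of this cell mixture in the stage contrasts was not tested.

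**Figure D4:**
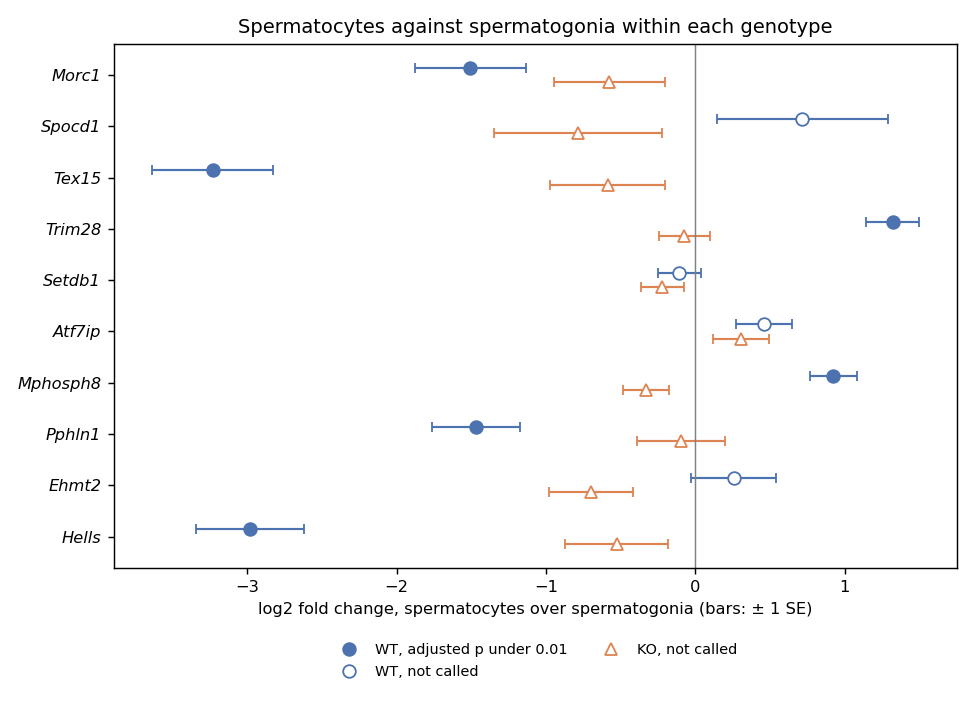
Log2 fold change of spermatocytes over spermatogonia for each silencer in WT (blue circles) and KO (orange triangles), with bars of 1 SE and filled symbols at an adjusted p under 0.01 in edgeR's test. In WT the values span -3.23 (Tex15) to 1.32 (Trim28) with 6 filled, and in KO they span -0.79 to 0.31 with none filled.

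An interaction term fitted over the 14 libraries asked whether the KO effect was of another size in Spc than in Spg, since a call in Spc and none in Spg does not by itself show a difference. It was called for 4 members. The KO over WT log2 fold change was larger in Spc than in Spg by 2.64 ± 0.56 for Tex15 (edgeR adjusted p = 0.00253) and by 2.45 ± 0.50 for Hells (0.002). These are 2 of 10 higher, where 11.1% of genes were called higher. For Trim28 the difference was -1.39 ± 0.24 and for Mphosph8 -1.25 ± 0.22 (edgeR adjusted p = 0.000854 for both), 2 of 10 lower against 14.6%. Both of these lost the call on library totals (-0.63 with an adjusted p of 0.03 and -0.51 with 0.0508), where the all-gene median was 0.90 in place of 0.20 and 4252 genes were called higher and 1733 lower in place of 2690 and 3561. For Pphln1 the difference was 1.37 ± 0.42 (edgeR adjusted p = 0.0172), which passed with DESeq2 (1.36, adjusted p = 0.0065), with library totals (2.00, edgeR adjusted p = 0.00749), with the replicate block (1.48, 0.008) and without WT Spc replicate 3 (1.78, 0.000171).

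Marker genes moved with the same comparison. The pachytene, spermatid and spermatogonial sums differed between KO and WT Spc, with 6 of 6 pachytene genes lower in KO, 6 of 6 spermatid genes lower and 6 of 7 spermatogonial genes higher. Within WT Spc, replicate 3 had the highest Tex15, Hells, Morc1 and Pphln1, the lowest Trim28 and Mphosph8, and the highest spermatogonial sum (272 CPM, against 37.1 to 150.5 in the others). Early meiotic genes summed to 1173 to 2245 CPM in WT Spc and 1176 to 2256 CPM in KO Spc, sums carried by Sycp1, Sycp3 and Hormad1, which were not called, while Dmc1 (2.88), Meiob (2.03) and Prdm9 (3.34) were called higher in KO Spc, 3 of 6. The summed levels of somatic marker genes were also higher in KO Spc than in WT Spc, with 53.3 to 318 against 13.9 to 29.5 CPM summed over 5 Leydig genes, 16.9 to 168 against 3.55 to 10.3 CPM over 4 peritubular genes and 22.1 to 124 against 2.82 to 5.94 CPM over 5 macrophage genes. Of 5 Sertoli genes edgeR called none in Spc with TMM (4 had an unadjusted p under 0.05) and 3 with library totals, and their sum was 56.9 to 209.5 CPM in KO and 26.9 to 89.9 CPM in WT Spc. None of the markers named here was at 0 in every library of a Spc group. The part of these cells in the members' differences was not tested.

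The other genes of the same pathways were read from 6 lists of 48 genes in all. In Spg none of the 48 was called by edgeR, 5 having an unadjusted p under 0.05. In Spc 29 were called between KO and WT (15 higher and 14 lower in KO), beside 28.0% of all genes called higher and 30.7% lower, so this count too was near that of all genes. On library totals the split was 22 higher and 7 lower. In the WT stage contrast 13 were higher and 18 lower in Spc, beside 29.2% of all genes called higher and 23.3% lower, and on library totals 6 were higher and 29 lower. In the KO stage contrast edgeR called 1, while DESeq2 called 4 (Kdm4d, Morc2b, Dnmt1 and Uhrf2) and the fit with the replicate block 0. Of 7 further H3K9 methyltransferases and cofactors, 4 were higher in KO Spc and none lower (5 and none on library totals). Suv39h1, a methyltransferase of pericentric heterochromatin, rose by 3.58 on the log2 scale, Ehmt1, the partner of Ehmt2, by 2.94 and Suv39h2, the testis-enriched relative of Suv39h1, by 2.11. Ehmt1 thus lay at 67.2 to 100.6 CPM in KO Spc against 3.33 to 26.1 CPM in WT Spc, where Ehmt2 overlapped.

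Of 11 H3K9 demethylases, 4 were higher and 4 lower in KO Spc (7 and 3 on library totals), led by Phf8 (2.64), Kdm4b (1.72) and Kdm4c (1.66) and by Phf2 (-3.68), Kdm4d (-3.17) and Kdm3a (-1.43). Kdm4b lost its call with the replicate block (1.87, edgeR adjusted p = 0.0238). Kdm4d, a testis-enriched demethylase, was also the 1 gene that edgeR called in the KO stage contrast, where it was higher in Spc by 2.24. Of 10 HP1 proteins and subunits of the NuRD complex, with which TRIM28 acts, 2 were higher (Cbx3 1.28, Hdac2 0.88) and 4 lower, Mbd3 (-1.84), Hdac1 (-1.27) and Mta1 (-1.15) leading. On library totals that list had 2 higher and 1 lower, and its split therefore depends on the scaling. Hdac1 (-0.52, edgeR adjusted p = 0.0259) and Mta1 (-0.43, 0.0816) lost their call there, and Mbd3 (-1.10, 0.000533) was still called.

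Of 8 genes of piRNA-directed methylation, 2 were higher in KO Spc (Dnmt3a 2.84, Spin1 2.31) and 3 lower (Mael -3.31, Tdrd9 -2.47, Dnmt3l -2.45), and on library totals the split was 3 higher and 2 lower. Dnmt3l lost its call on library totals (-1.83, edgeR adjusted p = 0.0202) and with the replicate block (-2.22, edgeR adjusted p = 0.0102). Piwil4, which encodes MIWI2, was at 0 to 1.32 CPM in WT Spc and 1.97 to 5.74 CPM in KO Spc and was not called (2.81, edgeR adjusted p = 0.022), though DESeq2 (2.84, adjusted p = 0.00356) and the fit with the replicate block (3.54, edgeR adjusted p = 0.00779) called it. Of 6 genes listed under maintenance of DNA methylation, not all with a settled part in it, Cdca7, the partner of HELLS, was higher in KO Spc by 2.94. Uhrf2, a relative of Uhrf1, was higher by 1.30, while Pcna fell by 0.93 and Uhrf1 by 0.78 on the log2 scale. On library totals the list had 2 higher and none lower, with Pcna at -0.21 (edgeR adjusted p = 0.463) and Uhrf1 at -0.04 (0.866). Uhrf1 also lost its call with the replicate block (-0.79, edgeR adjusted p = 0.0244). Cdca7 stood at 2.41 to 28.6 CPM in WT Spc and 45.6 to 129 CPM in KO Spc, groups that did not overlap, as for Hells.

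Of 6 partners and relatives of HUSH factors, Morc4 was higher in KO Spc (3.42) and Morc2b lower (-9.19, edgeR adjusted p = 8.68e-06), and on library totals 3 were higher and 1 lower. Morc2b, a retrogene of the MORC family active in meiosis, lay at 387 to 853 CPM in WT Spc and at 0.233 to 2.30 CPM in KO Spc. In Spg it lay at 7.79 to 67.1 CPM in WT and at 0 to 0.160 CPM in KO, without overlap. Its log2 fold change in Spg was -8.53 with an edgeR adjusted p of 0.0316, which missed the threshold, and the fit with the replicate block called it (-8.06, edgeR adjusted p = 0.00439), as did DESeq2 (-8.58, adjusted p = 3.24e-07). It was the 1 gene of the 48 called in Spg by either of these fits. The pachytene sum differed in the same direction in Spg, at 71.1 to 933 CPM in WT and 13.8 to 16.8 CPM in KO, and its part was not tested. Tasor, a further core subunit of HUSH, was not called in Spc (-0.34, edgeR adjusted p = 0.185, and 0.34 on library totals).

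The genes most like the 3 germline factors were taken by Pearson's r of log2 CPM over the 14 libraries, among 10721 genes. For Tex15 they were Med12l (r = 0.993), Fam199x (0.991) and Homer1 (0.988), and for Morc1 they were Slc35f2 (0.982), Cnp (0.979) and Prtg (0.974). Spocd1 had weaker matches in D1Ertd622e (0.909), Adap1 (0.879) and Kctd10 (0.870). These values are descriptions, since the 14 libraries form 4 groups and are not independent points, and Spocd1 split the Spc libraries by replicate number.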

How the data were processed

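RNA of 14 libraries of sorted germ cells was measured. The authors made libraries from polyadenylated RNA with a stranded kit, aligned reads to GRCm38 with STAR (2.7.3a in the submitters' processing notes, which also name cutadapt 4.0), kept up to 100 alignments per read and deposited raw counts per gene and transposon subfamily from TEtranscripts, counted by strand. They left out 1 library of Spg per genotype for RNA quality. No exon of another gene overlaps a member's exons on the same strand in GENCODE M21, from which positions and exon lengths come. The authors' fold changes and p-values (DESeq2 1.44.0) and the levels of single transposon copies were not used.

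Counts were fitted with edgeR 4.0.16 in R 4.3.3 (filterByExpr, TMM over genes and transposon subfamilies, quasi-likelihood test, no covariate). KO and WT were compared within each stage, and stages and the interaction were fitted over all 14 libraries with the entries found in both tables. Adjusted p-values are Benjamini-Hochberg over all entries tested. An error after a log2 fold change is its SE, taken as the absolute value divided by the square root of F. All 10 members passed the filter in each fit. Fits were tested on simulated data. DESeq2 1.42.0, other scalings and filters, the replicate block, a threshold of 0.05, leaving out each library and summing Spc replicates 1 and 4 were tried as alternatives. The members and lists were chosen with earlier results of these data known. The genes most like Morc1, Spocd1 and Tex15 were taken among genes with a mean of at least 10 CPM, at a pseudocount of 0.5 CPM. Of each other list, up to 3 called genes a direction with the largest fold change were named. Tasor, Piwil4 and Ehmt1 beside Ehmt2 were named for their role, after their values were seen.

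Libraries of Spg with the same number deviated together from their group means (r = 0.797, 0.187 and 0.329 between KO and WT), though replicate 2 was not most like its own number. In Spc (0.0699, 0.219, -0.0367 and 0.135) and in WT across stages (-0.190, -0.147 and 0.363) not every pair did, although Spc replicates 1, 2 and 4 (3 of 4) were most like their own number. KO libraries across stages gave 0.523, 0.101 and 0.344, but none was most like its own number. Spg replicate 3 is numbered 4 in the deposited table, so numbers do not match across stages. Labels say nothing of a shared litter or day.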

Additional observations from a re-analysis of the deposited data

Results flagged for a closer look

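In the group of 4 WT Spc libraries, replicate 3 lay far from the other 3 for Tex15 (141 CPM, the highest), Trim28 (854 CPM, the lowest) and Mphosph8 (332 CPM, the lowest). Its gap to the nearest library, as a share of the group's range, was above Dixon's critical value at 95% in each case. Chance alone flags about 1 in 20 groups, and 20 groups of 4 libraries were checked. Without this library Tex15, Trim28 and Mphosph8 stayed called in Spc.

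The KO effect differed between Spg and Spc by the interaction test for 4 genes. The difference was 2.64 on the log2 scale for Tex15 and 2.45 for Hells, which were higher in KO in 4 of 4 Spc libraries than in any WT Spc library. It was -1.39 for Trim28 and -1.25 for Mphosph8, which were lower in KO in 4 of 4 Spc libraries. On library totals these 2 were -0.63 (edgeR adjusted p = 0.03) and -0.51 (0.0508) and lost their call.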

How the results depend on the processing

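Of 950 log2 fold changes of members recomputed under the alternatives, 913 kept their direction and their side of the threshold, 19 changed sign, 12 gained a call and 6 lost one. The number of members called was 0 in Spg and in the KO stage contrast under every alternative run. It was 4 to 7 in Spc KO against WT, 5 to 7 in the WT stage contrast and 3 to 5 for the difference between stages.

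Scaling by library totals turned the sign of Atf7ip in Spc (0.52), of Spocd1 (-0.19), Atf7ip (-0.37) and Ehmt2 (-0.61) in the WT stage contrast, and of Setdb1 (0.62) and Atf7ip (0.57) in the difference between stages, none of them called. Setdb1 in Spc was -0.0315 with DESeq2 and with its size factors in edgeR. Leaving out each library in turn moved uncalled values across 0. In Spg, Spocd1 ran from -0.278 to 0.535, Tex15 from -0.345 to 0.0454, Ehmt2 from -0.0194 to 0.175 and Hells from -0.0254 to 0.270. In Spc, Setdb1 ran from -0.0188 to 0.0817, and in the difference between stages Setdb1 ran from -0.192 to 0.000879 and Atf7ip from -0.232 to 0.0621. The cause of these changes was not tested.

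With the replicate block, 6 members were called in Spc (Morc1 added, 1.37) and 5 in the difference between stages (Pphln1 added, 1.48), and no other call of a member changed. Same-numbered Spc libraries are not shown to be paired, so this is a description. Across stages the block joins Spg replicate 3, numbered 4 in the deposited table, with Spc replicate 3. In the KO stage contrast it gave 375 calls over all genes in place of 742, and Kdm4d lost its call (2.15, edgeR adjusted p = 0.0256). At 3 or 4 libraries a group, the SE of Spocd1 (0.47 to 0.80) allows large changes to go uncalled. Over all genes, DESeq2 called 514 in Spg, 2337 in the KO stage contrast and 9865 in the difference between stages, where edgeR called 13, 742 and 6251. Without a filter 144 were called in Spg, and without single libraries 0 to 18. In the KO stage contrast, 112 to 1005 were called without single libraries and 346 with Spc replicates 1 and 4 summed, which left 3521 in the difference between stages (3795 to 8993 without single libraries). The filter at a mean count of 50 gave 8 in Spg.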
